A study of Mus musculus with 12 samples.

Results

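The voltage-gated sodium and calcium channel subunits were taken as the genes of the count table whose symbol is Scn followed by a number and a or b, or Cacna or Cacnb followed by a number. This rule found 31 of 22609 genes, and all 31 enter the counts below whether or not reads were counted on them. They are 9 sodium channel alpha subunits, 4 sodium channel beta subunits, 10 pore-forming calcium channel alpha1 subunits, 4 alpha2delta subunits and 4 calcium channel beta subunits. The alpha subunit that is now named Scn2a is listed in the table as Scn2a1, so it did not meet the rule and its values are given only beside those of its neighbours.

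A voltage-gated sodium channel is built around 1 large alpha subunit that forms the pore and opens on depolarization to carry the upstroke of the action potential, while small beta subunits anchor the channel and tune its gating. A calcium channel has a pore-forming alpha1 subunit. In most types it is joined by an intracellular beta subunit that brings it to the membrane and an extracellular alpha2delta subunit that sets how much of it reaches the surface. The alpha1 subunits fall into L type, which couple depolarization to gene expression and muscle contraction, P/Q, N and R type, which open at nerve terminals to release transmitter, and T type, which open near the resting potential and are seen early in neuronal maturation. In neural precursors many of these genes are held low by the repressor REST, which binds a DNA element near its neuronal targets.

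The core of that element was searched for because the channel genes hold well known examples of it. The letters searched were CAGCACC, then any 2 bases, then GGACAG, on both strands, in the mm9 genome and within 10 kb on either side of each gene start. A match lay in this window for 3 of 31 members (9.68%), against 202 of 21569 genes (0.937%). The sequences are shown 5′ to 3′ on the strand of the match, with the 15 letters of the motif in capitals and 3 bases on either side, for the matches inside the window of the 3 members and of Scn2a1.
Scn3b: gctCAGCACCACGGACAGtag
Cacna1b: cgtCAGCACCACGGACAGctg
Cacna1i: gatCAGCACCACGGACAGcga
Scn2a1: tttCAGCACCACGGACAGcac
These 4 sequences carried the bases AC at the free positions. The Scn3b match lay at chr9:40077326-40077346 on the minus strand, in an exon 528 bases after the gene start. The Cacna1b match lay in an intron 1053 bases after the start (chr2:24617602-24617622, plus strand), and the Cacna1i match lay outside the gene, at -9418 bases from its start (chr15:80108247-80108267, plus strand). The match of Scn2a1 lay at -891 bases from the start (chr2:65458020-65458040, plus strand). Beyond the window 4 members held a match in an intron, Cacna1h with AC and Scn10a, Cacna1a and Cacna2d3 with other free bases, so that the loci of the members held 6 matches, 1.1 per Mb, against 0.529 per Mb over all gene loci. A match describes the letters only, and binding was not measured. Rest itself, the gene of the repressor, stood at 39.8, 48.1 and 32.2 CPM at T0, 37.5, 43.4 and 36.8 at T1, 31.7, 39.9, 22.6 and 32 at T2, then 32.3 and 30.8 at T3, where CPM are the usual depth-scaled read counts of a gene, with the library size set by the trimmed mean of M-values. Libraries are given in the order of their replicate numbers throughout, and T3 is replicates 1 and 4. Rest was called in no comparison (log2 fold change -0.03 at T1, -0.33 at T2 and -0.33 at T3 against T0, edgeR adjusted p from 0.228 to 0.893).

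The cells were adherent neural stem (ANS) cells, a stem cell culture from the normal brain of mouse embryos at E14.5. The names of the FPKM columns mark the samples as wt. Polyadenylated RNA was sequenced at 4 time points. T0 cells (3 libraries) proliferated in growth medium with FGF2 and EGF. T1 cells (3 libraries) had spent 2 days in medium D1, with less of both factors. T2 cells (4 libraries) had spent 2 days in medium B, which holds FGF2 and BDNF, and T3 cells (2 libraries, labelled GAD+) 10 days in medium B. T2 and T3 cells had first been in medium D1, and were then dissociated and seeded again on laminin for medium B. T1 and T2 therefore differ in time in culture and in substrate as well as in medium. The growth protocol gives 3 days for each medium where the sample titles give 2. The study's methods place T3 after a further stay in medium B beyond T2, so the time in medium B at T3 is uncertain by the length of the T2 stage. They describe the libraries as biological replicates. The column of FPKM values taken for T3 replicate 4 carries a 2 beside the 4 in its name, and T3 values in FPKM rest on reading it as that library. A library held 8910724 to 16631614 reads on genes (median 12601169). T0 replicate 3 stood apart from the other T0 libraries. Of the 18 members with more than 3 counts in a T0 library, 14 were lowest in it (77.8%, against 46.8% of all 13678 such genes). In it 8 lay under 0.5 times the lower of the other T0 libraries (44.4%, against 13.6%), while 1 lay over 2 times the higher (5.56%, against 3.89%). The T3 libraries also differed, with 8 of 23 members over 2 times higher in replicate 1 and 4 over 2 times higher in replicate 4. The share of all genes that differed so at T3 was not counted. The counts of members called against T0, and the folds of some members, are therefore also given without T0 replicate 3. Values of marker and partner genes are given with all libraries only.

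The progenitor markers summed to 5312 to 7403 CPM at T0 and were at 4954 CPM or more in every library, and the cycling markers went from 1292 to 2015 CPM at T0 to 71.2 to 187 at T1, 105 to 230 at T2 and 400 to 708 at T3. Of the neuron markers, Dcx, Tubb3, Mapt and Gad1 carried most reads, and the 8 markers summed to 16.2 to 65.4 CPM at T0, 479 to 541 at T1, 623 to 763 at T2 and 507 to 1088 at T3. The markers of mature neurons reached at most 2.31 CPM for Rbfox3, 3.09 for Snap25 and 1.3 for Syt1 in any library. Stmn2, also listed as a neuron marker, reached at most 0.108 CPM. Rbfox3 and Snap25 nevertheless rose at T2 (edgeR adjusted p = 0.000569 and 0.0025). Their fitted folds, 30.4 and 11.7, start from very few reads and are not exact, and Rbfox3 did not enter the test at T1. The 8 oligodendrocyte lineage markers summed to 3287 to 3622 CPM at T0 and 6232 to 6371 at T3, and the 8 astrocyte markers to 2603 to 4214 and 2454 to 2738. Of the oligodendrocyte lineage markers, 1 of 7 tested was called higher at T1 against T0 (Pdgfra), beside 15.1% of all genes. At T2, 3 of 7 were called higher (Pdgfra, Olig1 and Gpr17), beside 21.4% of all genes, and 0 were lower at either time point. None of the 8 was called at T3 against T0. Their fitted changes at T3 were down for Sox10 (log2 fold change -3.21) and Mbp (-0.72) and up for the others. Muscle markers summed to at most 5.01 CPM, with Myod1, Myog and Myf5 at 3 counts or fewer in every library, microglia markers to at most 0.555, mural cell markers to at most 6.03 and endothelial markers to at most 2.68 CPM. In bulk RNA, more cells of a type and more RNA per cell cannot be told apart. The part of these other cell types in the channel results was not tested.

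**Figure D1:**
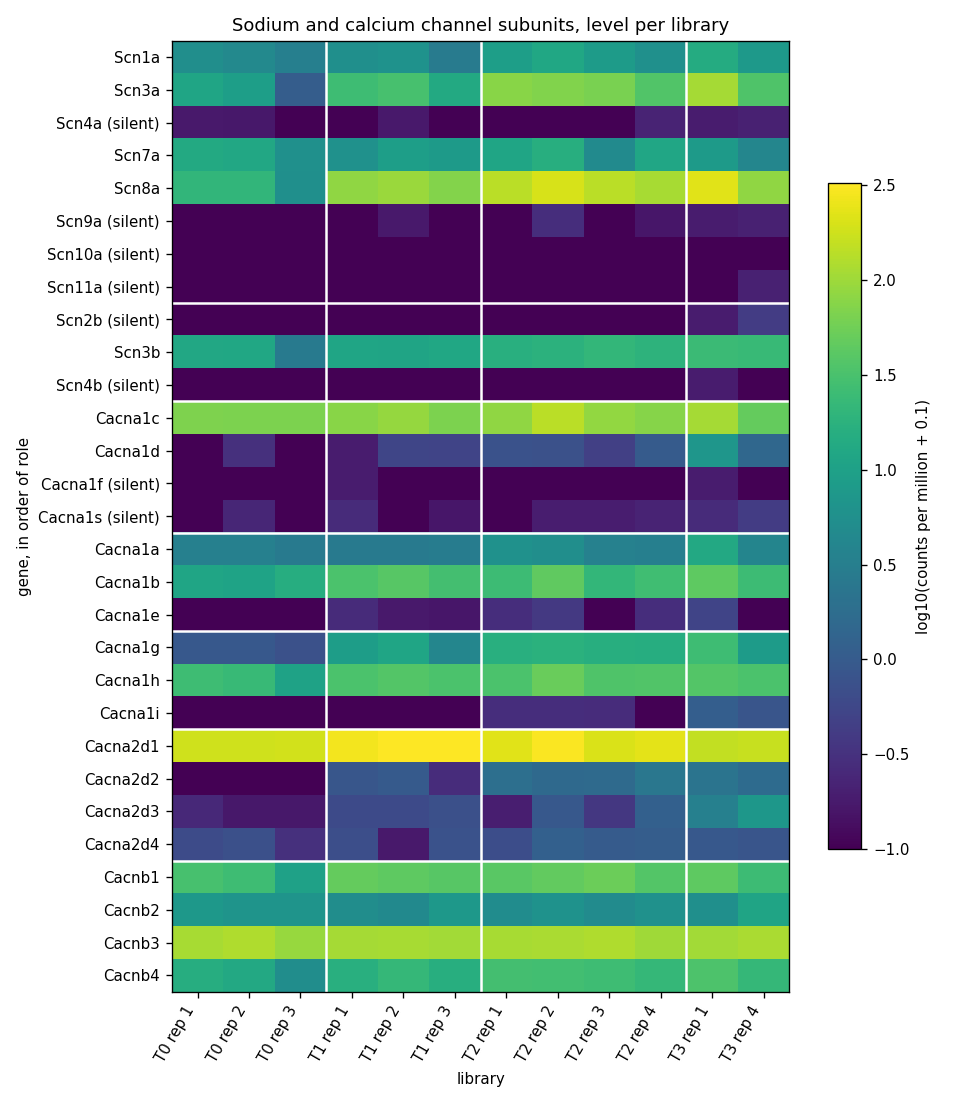
Level of 29 of the 31 members (rows, grouped by role) in the 12 libraries (columns), as the log10 of CPM plus 0.1, with white lines between time points and between roles. The 8 silent members are dark in every library, Cacna2d1 and Cacnb3 are bright in every library, and Scn8a and Scn3a brighten after T0.

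Silent was defined as at most 3 counts in every one of the 12 libraries. This held for 8 of 31 members (25.8%), against 7925 of the 22609 genes (35.1%). By role, 4 of 9 sodium alpha subunits, 2 of 4 sodium beta subunits and 2 of 4 L-type alpha1 subunits were silent, and no P/Q, N or R type, T-type, alpha2delta or calcium beta subunit was. A count of 0 in the shallowest library still allows 0.337 CPM, and this limit covers counting error only.

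The silent sodium alpha subunits were Scn4a, the skeletal muscle channel, and Scn9a, Scn10a and Scn11a, the channels of sensory neurons in dorsal root ganglia. Scn10a had 0 counts in all 12 libraries. Scn11a had a single count, in T3 replicate 4, while Scn9a had a count in 5 libraries and Scn4a in 6, with 2 at most in each. The silence of Scn4a rests on a short model, since the locus given in the authors' FPKM table (chr11:106210769-106214602) covers 11% of the length of the gene in the GENCODE annotation of the same build. The silent beta subunits were Scn2b, which pairs with alpha subunits of central neurons and reached 1 and 3 counts at T3 with 0 elsewhere, and Scn4b, with a single count in T3 replicate 1. Both lie next to each other on chromosome 9. Of the L-type subunits, Cacna1f, the photoreceptor channel, had 1 count in each of 2 libraries, and Cacna1s, the skeletal muscle channel, had 1 to 3 counts in 8 libraries. Cacna1e, the R-type subunit, was near this limit with 0, 0 and 0 counts at T0, 2, 1 and 1 at T1, 2, 3, 0 and 3 at T2, then 5 and 0 at T3, and it was too low to be tested in any comparison.

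The remaining members were ordered by FPKM (fragments per kilobase of gene scaled to library size, as the authors give them), a unit scaled by length that allows levels to be set between genes. At T2 the highest was the calcium beta subunit Cacnb3, at 28.8 ± 2.87 FPKM (SD, n = 4), followed by Cacna2d1 at 22.6 ± 3.97 FPKM (SD, n = 4) and Cacnb1 at 18.5 ± 2.48 FPKM (SD, n = 4). The ranges of these neighbours overlapped, and those of Cacnb1 and of the next gene, the L-type subunit Cacna1c at 8.55 ± 3 FPKM (SD, n = 4), did not. Cacna1h, Cacna1b, Scn3a and Cacnb4 followed with means of 8.17, 7.72, 6.8 and 5.5 FPKM, and the range of each overlapped that of Cacna1c. Over the whole course 15 members exceeded a mean of 1 FPKM at some time point and 11 at every time point. Cacnb3 was highest at T0, T2 and T3, and Cacna2d1 at T1.

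Scn8a was the member whose ratio of T2 to T0 depended most on the scale. Its mean CPM was 9.67 times higher at T2 than at T0, while its mean FPKM was 2.02 times higher, and it took place 11 by FPKM at T2 but place 3 by CPM per kb of the longest GENCODE transcript. In FPKM it measured 1.41, 1.13 and 1.74 FPKM at T0, 2.75, 3.04 and 3.5 at T1, 2.53, 3.86, 2.25 and 2.9 at T2, then 3.63 and 2.11 at T3. The T1 libraries were all above the T0 libraries on this scale as well, and T0 replicate 3, the lowest in CPM, was the highest of T0 in FPKM. Cacna1a behaved in a like manner, with a mean CPM 1.45 times higher and a mean FPKM 0.604 times as high at T2. Of the 18 members with over 3 counts at T0 these were the pair with the widest gap between both ratios (4.78 and 2.4 times), and the source of the gap was not tested.

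Each later time point was compared with T0, and T2 with T1 and T3 with T2, by the quasi-likelihood test of edgeR over all genes that passed its filter, with a threshold of 0.05 on the Benjamini-Hochberg adjusted p. A member is said to rise or fall only where it passed. At T1, 17 members could be tested: 4 rose (Scn8a, Cacna1b, Cacna1g and Cacna2d1) and 1 fell, with 15.1% of the 12364 genes tested called higher and 16.8% lower. At T2, 10 of 19 rose (Scn1a, Scn3a, Scn8a, Cacna1b, Cacna1g, Cacna1h, Cacna2d1, Cacna2d2, Cacnb1 and Cacnb4) and 0 fell, against 21.4% higher and 21.8% lower of 12607 genes. At T3, 3 of 22 rose (Cacna1g, Cacna2d2 and Cacna2d3) and 0 fell, against 3.31% and 1.41% of 12721 genes. Among the members tested, the median log2 fold change against T0 was 0.33 (T1), 0.99 (T2) and 1.33 (T3), and over all genes tested it lay between -0.01 and 0.00. A member that is low at T0 enters the test only if a later group is high. These medians, the calls above and the counts without overlap below therefore describe the members that passed the filter and not all 31. At T3, Cacna1d, Cacna1i, Cacna2d2 and Cacna2d3 had at most 3 counts in every T0 library and could only come out higher. The same held for Cacna2d2 at T2. The comparisons share the T0 libraries. At T1, 8 of 17 members lay above T0 without overlap and 1 below, against 28.6% and 28% of all genes tested. At T2, 12 of 19 lay above and 1 below, against 27% and 27.2%, and at T3, 14 of 22 lay above and 1 below, against 24.3% and 25.8%. An unadjusted p under 0.05 was reached by 7 members at T1 (44.8% of all genes), 11 at T2 (52.5%) and 11 at T3 (26.3%). DESeq2 also called 0 members lower at T2 and at T3.

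Without T0 replicate 3, 8 members were higher and 2 lower at T1 (25.2% and 24.9% of all genes), 11 higher and 0 lower at T2 (26.7% and 25.3%), and 8 higher and 0 lower at T3 (9.94% and 8.49%). The members gained were Scn3a, Cacna1h, Cacna2d2 and Cacnb1, higher, and Scn7a, lower, at T1, Scn3b at T2, and Scn3a, Scn8a, Scn3b, Cacna1d and Cacna1b at T3. No call was lost.

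**Figure D2:**
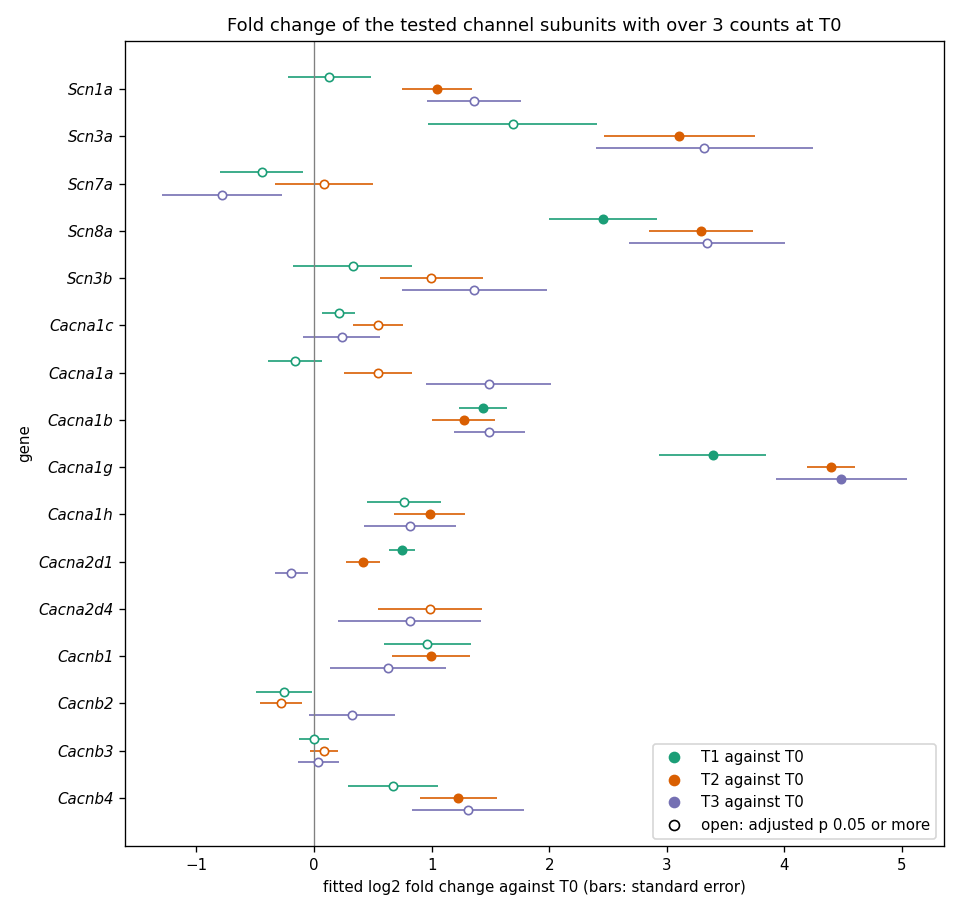
Fitted log2 fold change against T0 (x axis, bars are the standard error) for tested members with over 3 counts in a T0 library, for T1, T2 and T3. Filled points have an adjusted p under 0.05. Cacna1g lies farthest to the right at each time point, between 3.39 and 4.49, and Cacnb3 lies within 0.1 of 0.

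Of the sodium alpha subunits, Scn8a and Scn3a, both channels of central neurons, held most of the reads after T0, and both rose. The 9 genes summed to 53.9, 50.3 and 20 CPM at T0, 126, 145 and 99.5 at T1, 243, 301, 219.5 and 170.4 at T2, then 358 and 145 at T3. All 9 libraries of T1 to T3 lay above the T0 libraries.

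Scn8a, the alpha subunit of mature axon initial segments, measured 20.3, 20.3 and 5.43 CPM at T0, 85.3, 96.2 and 72 at T1, 142, 199.9, 139.8 and 112 at T2, then 224 and 83.7 at T3. Every later library lay above every T0 library, and T0 replicate 3 was the lowest. It rose 5.49-fold at T1 (log2 fold change 2.46, SE 0.46, edgeR adjusted p = 0.00867) and 9.79-fold at T2 (log2 fold change 3.29, SE 0.44, edgeR adjusted p = 0.000739). At T3 the fitted fold was 10.1 and just missed the threshold (log2 fold change 3.34, SE 0.66, edgeR adjusted p = 0.0508), which it passed without T0 replicate 3 (log2 fold change 2.94, SE 0.49, edgeR adjusted p = 0.0231). Without that library the folds were 4.15 at T1 and 7.38 at T2, and both stayed called.

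Scn3a, the alpha subunit of the embryonic and neonatal brain, measured 11.5, 9.28 and 0.987 CPM at T0, 26.2, 30.5 and 13.7 at T1, 77.1, 69.5, 64.7 and 35.6 at T2, then 108 and 35.3 at T3. The T0 libraries were lowest, and the T2 libraries were above the T1 libraries. It rose 8.62-fold at T2 (log2 fold change 3.11, SE 0.64, edgeR adjusted p = 0.00551), or 6-fold without T0 replicate 3 (log2 fold change 2.58, SE 0.31, edgeR adjusted p = 9.19e-05). At T1 the groups did not overlap either, but the fold of 3.23 did not pass (log2 fold change 1.69, SE 0.72, edgeR adjusted p = 0.114). It passed by DESeq2 and without T0 replicate 3 (log2 fold change 1.16, SE 0.31, edgeR adjusted p = 0.0131). It also passed with libraries numbered 1 and 2 alone, which likewise leaves out T0 replicate 3, and with the replicate block. The replicate numbers of T0 and T1 were not taken as pairs. In the T3 libraries the value of replicate 1 was 3.06 times that of replicate 4, and the fold of 9.98 against T0 was not called, while it was without T0 replicate 3, with no filter, by DESeq2 and in 1 fit of all libraries (log2 fold change 3.32, SE 0.92, edgeR adjusted p = 0.0933 with it, log2 fold change 2.81, SE 0.56, edgeR adjusted p = 0.0329 without it).

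Scn1a, the alpha subunit of fast-spiking inhibitory neurons in the mature brain, measured 5.33, 4.47 and 3.17 CPM at T0, 5.52, 5.98 and 2.81 at T1, 9.17, 12.1, 8.37 and 5.71 at T2, then 14.4 and 7.53 at T3. The T0 and T1 values overlapped and the T2 libraries lay above T0. It rose 2.06-fold at T2 (log2 fold change 1.04, SE 0.30, edgeR adjusted p = 0.0224), a call that was lost without T0 replicate 2, T2 replicate 1 or T2 replicate 2 (adjusted p from 0.052 to 0.0579). Scn7a, a sodium-sensing channel of glia and sensory organs, was called in no comparison. It measured 13.3, 12.5 and 5.64 CPM at T0, 5.86, 9.19 and 8.11 at T1, 11.6, 15.7, 4.73 and 12 at T2, then 8.04 and 3.98 at T3, and without T0 replicate 3 it was lower at T1 (log2 fold change -0.73, SE 0.19, edgeR adjusted p = 0.0108).

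Within the alpha family Scn8a took 35.1% ± 6.95 at T0, 68.7% ± 3.2 at T1, 63.6% ± 3.46 at T2, then 60.1% ± 3.5 at T3 of the CPM (mean ± SD over libraries, n = 3, 3, 4 and 2). Scn3a took 14.9% ± 8.73 at T0, 18.5% ± 4.13 at T1, 26.3% ± 5.16 at T2, then 27.2% ± 4.13 at T3. Scn7a took 25.9% ± 2.01 at T0, 6.38% ± 1.76 at T1, 4.79% ± 2.01 at T2, then 2.49% ± 0.352 at T3, while its own CPM was not called. Since CPM is not scaled by length, the shares describe reads and not molecules.

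A cluster of 5 sodium alpha genes lies on chromosome 2 of mm9 in the order Scn3a (65295175-65405684), Scn2a1 (65458914-65605504), Scn1a (66108838-66278897), Scn9a (66278937-66473009) and Scn7a (66511482-66622971). The neighbours did not share 1 pattern: Scn3a and Scn1a rose at T2, Scn7a was not called, and Scn9a was silent. Scn2a1, the alpha subunit of immature axons, measured 14.2, 12.2 and 5.5 CPM at T0, 15, 16.1 and 11 at T1, 16.1, 20, 15.1 and 13.6 at T2, then 25 and 12.8 at T3, and its fold at T2 was 1.54 without a call (log2 fold change 0.62, SE 0.31, edgeR adjusted p = 0.133).

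**Figure D3:**
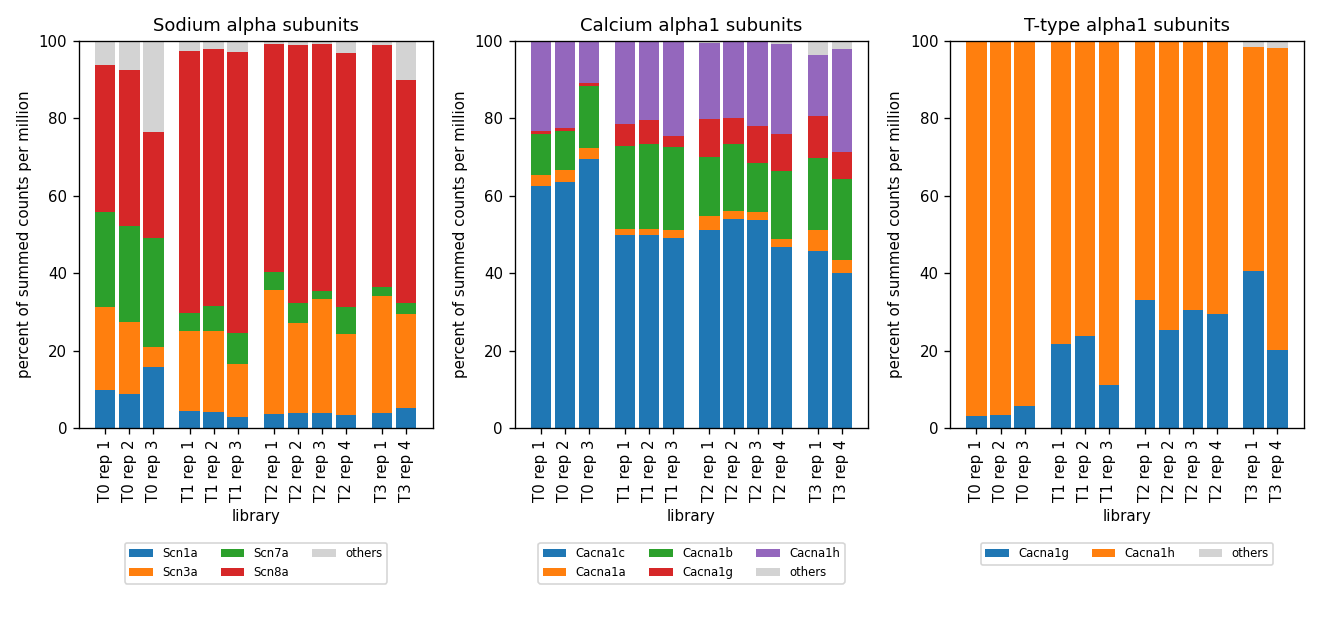
Share of each gene in the summed CPM of its family (y axis, percent) in every library (x axis) for the sodium alpha, calcium alpha1 and T-type alpha1 subunits. Genes under 5% in every library, and any gene without a name here, are pooled as others. Scn8a widens from T0 to T1 in the first panel, and Cacna1g widens while Cacna1h narrows in the third.

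Of the sodium beta subunits, Scn3b, a beta subunit of the embryonic brain, measured 12.8, 12.4 and 2.68 CPM at T0, 11.6, 11.2 and 12.3 at T1, 16.3, 17.7, 20.8 and 18.4 at T2, then 24.4 and 22.9 at T3. T0 replicate 3 was far below the other two, and the T2 and T3 libraries were above all T0 and T1 libraries. Between T1 and T2 it rose 1.58-fold (log2 fold change 0.66, SE 0.12, edgeR adjusted p = 0.0416), the only call of that step. This call was lost when any 1 of the 7 libraries was left out (adjusted p from 0.0617 to 0.219). Against T0 the fold of 2 at T2 was not called (log2 fold change 1.00, SE 0.44, edgeR adjusted p = 0.0968), and without T0 replicate 3 it was 1.47 and called (log2 fold change 0.56, SE 0.13, edgeR adjusted p = 0.00572).

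Among the L-type alpha1 subunits, Cacna1c, the main L-type channel of brain and heart, took 99.8% ± 0.3 of the family's CPM at T0 and 95.2% ± 1.96 at T3. It measured 69, 66.8 and 65.6 CPM at T0, 76.6, 91.2 and 66 at T1, 85.5, 141, 87.9 and 73.7 at T2, then 108 and 48.5 at T3. The T2 libraries lay above the T0 libraries, but the fold of 1.46 was not called (log2 fold change 0.55, SE 0.21, edgeR adjusted p = 0.0657), while it was called without T2 replicate 4 (adjusted p = 0.0454) and with the libraries numbered 1 and 2 alone. Cacna1d, the L-type channel that opens at lower voltage and paces firing, was at or under 3 counts in each T0 library and had 0, 3 and 0 counts at T0, 1, 6 and 7 at T1, 7, 7, 4 and 15 at T2, then 82 and 13 at T3. In CPM the T3 libraries lay above all earlier ones, and they were 4.91 times apart. At T3 it was at least 19.2-fold higher than at T0, taking 3 counts per library as the floor, with an adjusted p of 0.0549 in edgeR's test. From T3 replicate 4 alone the bound was 6.5-fold and from replicate 1 alone 31.9-fold. It was called without T0 replicate 3 (edgeR adjusted p = 0.0457). Against T2 its fold was 6.2 (log2 fold change 2.63, SE 0.59, edgeR adjusted p = 0.07), and without T3 replicate 4 it was 9.99 and called (edgeR adjusted p = 0.00791), whereas without T3 replicate 1 it was 2.08 (edgeR adjusted p = 0.291). An exon of Cacna1d overlaps the opposite-strand gene Chdh, and whether reads were counted by strand is not given in the sources used here.

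Of the alpha1 subunits of nerve terminals, Cacna1b, the N-type subunit, measured 11.6, 10.7 and 15.1 CPM at T0, 32.8, 40.1 and 28.5 at T1, 25.8, 44.6, 21.1 and 27.5 at T2, then 43.8 and 25.4 at T3. All T1 to T3 libraries lay above all T0 libraries, T0 replicate 3 being here the highest of T0. It rose 2.71-fold at T1 (log2 fold change 1.44, SE 0.20, edgeR adjusted p = 0.00289) and 2.41-fold at T2 (log2 fold change 1.27, SE 0.27, edgeR adjusted p = 0.00626). At T3 the fold was 2.81 (log2 fold change 1.49, SE 0.30, edgeR adjusted p = 0.0512), called without T0 replicate 3 (log2 fold change 1.66, SE 0.29, edgeR adjusted p = 0.0258). Cacna1a, the P/Q-type subunit, stayed between 2.59 and 5.83 CPM in all libraries but T3 replicate 1, at 13.1, and was called in no comparison. Its exons overlap the opposite-strand gene Gm16183. Together with Cacna1e, the family summed to 14.8, 13.9 and 17.7 CPM at T0, 35.5, 42.9 and 31.5 at T1, 31.8, 50.3, 24.5 and 30.8 at T2, then 57.3 and 29.3 at T3.

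Within the T-type subunits Cacna1g had the largest fold of the members with over 3 counts in a T0 library. It measured 0.825, 0.837 and 0.635 CPM at T0, 9.05, 11.4 and 4.02 at T1, 16.2, 17.4, 15.6 and 15.3 at T2, then 25.9 and 8.39 at T3. The T0 libraries had 9 to 12 counts each, agreed closely among themselves with T0 replicate 3 included, and lay below all later libraries. Cacna1g rose 10.5-fold at T1 (log2 fold change 3.39, SE 0.46, edgeR adjusted p = 0.00248), 21.1-fold at T2 (log2 fold change 4.40, SE 0.20, edgeR adjusted p = 2.89e-05) and 22.4-fold at T3 (log2 fold change 4.49, SE 0.56, edgeR adjusted p = 0.0205), and was the only member that rose at each of the 3. The calls at T1 and T2 held when any 1 library was left out. The call at T3 was lost without T0 replicate 1, T0 replicate 2, T3 replicate 1 or T3 replicate 4 (adjusted p from 0.0648 to 0.144, log2 fold change from 3.46 to 5.07).

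Cacna1h, the T-type subunit already present in the stem cells, measured 25.9, 23.4 and 10.4 CPM at T0, 32.5, 36.8 and 32.4 at T1, 32.8, 50.9, 35.4 and 36.5 at T2, then 37.1 and 32.3 at T3. The T0 libraries were all below the later ones, T0 replicate 3 most of all. It rose 1.98-fold at T2 (log2 fold change 0.98, SE 0.30, edgeR adjusted p = 0.0299), or 1.6-fold without T0 replicate 3, and the call was lost without T2 replicate 2, 3 or 4 (adjusted p from 0.0552 to 0.0795). Its exons overlap the opposite-strand gene Tpsg1. Cacna1i, the third T-type subunit, was listed at 0 counts in all T0 and T1 libraries, at 2, 2, 2 and 0 at T2 and at 12 and 7 at T3. At T3 it was at least 4.08-fold higher than at T0 against the floor of 3 counts per library, without a call (edgeR adjusted p = 0.0597). From T3 replicate 1 alone the bound was 4.67-fold and from replicate 4 alone 3.5-fold. Cacna1h took 95.9% ± 1.43 at T0, 81.2% ± 6.83 at T1, 70.2% ± 3.21 at T2, then 68% ± 14.1 at T3 of the T-type CPM, and Cacna1g took 4.09% ± 1.43 at T0, 18.9% ± 6.83 at T1, 29.6% ± 3.16 at T2, then 30.4% ± 14.3 at T3.

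**Figure D4:**
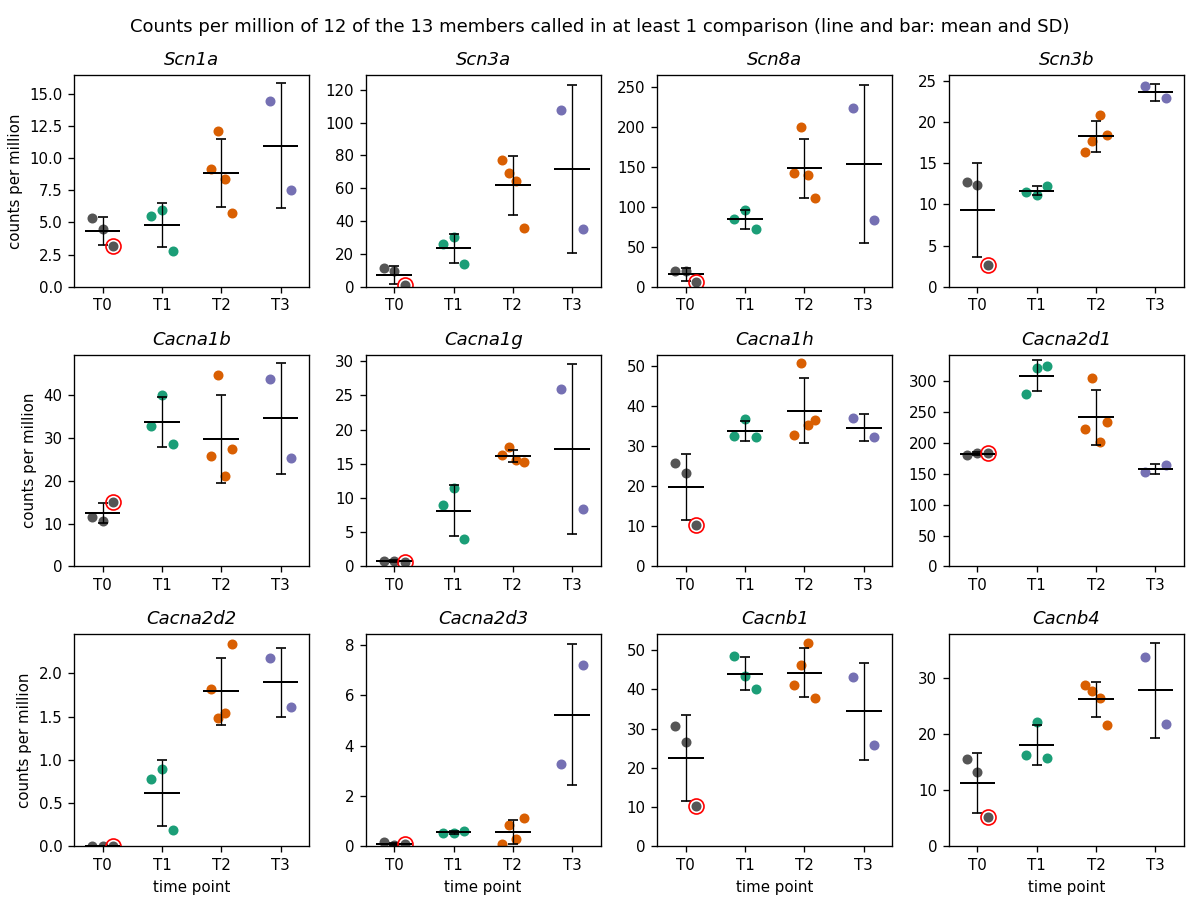
CPM (y axes, linear from 0) at the 4 time points for 12 of the 13 members called in at least 1 comparison; points are libraries, the line is the mean, the bar the SD, and the red ring marks T0 replicate 3. Scn8a, Cacna1b and Cacna1g separate from T0 at T1, Cacna2d1 peaks at T1, and in most panels the ringed library is the lowest.

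The alpha2delta subunits were dominated by Cacna2d1, the target of gabapentin, which took 99.7% ± 0.129 of their CPM at T0. Cacna2d1 measured 181, 183 and 185 CPM at T0, 279.8, 322 and 325 at T1, 224, 305, 202 and 235 at T2, then 153 and 164 at T3. The T0 libraries, replicate 3 included, agreed closely, the T1 and T2 libraries were above them and the T3 libraries below. It rose 1.68-fold at T1 (log2 fold change 0.75, SE 0.11, edgeR adjusted p = 0.00353), which held when any 1 library was left out. At T2 it was still 1.33-fold up (log2 fold change 0.42, SE 0.15, edgeR adjusted p = 0.0472), and this call was lost without T0 replicate 1 or 2 or T2 replicate 1, 2 or 4 (adjusted p from 0.0622 to 0.106). At T3 it was not called against T0 (log2 fold change -0.19, SE 0.14, edgeR adjusted p = 0.428) or against T2 (log2 fold change -0.61, SE 0.17, edgeR adjusted p = 0.109), although the libraries did not overlap in either comparison.

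The minor alpha2delta subunits started at or near 0. Cacna2d2, which is tied to cerebellar function, had 0, 0 and 0 counts at T0, 9, 12 and 3 at T1, 19, 16, 17 and 38 at T2, then 26 and 15 at T3. T0 had no count in any library, and T2 and T3 had 15 or more in each. It was at least 8.33-fold higher at T2 (edgeR adjusted p = 0.000455) and at least 8.81-fold higher at T3 (edgeR adjusted p = 0.0399), taking 3 counts per T0 library as the floor. From T3 replicate 1 alone the bound was 10.1-fold and from replicate 4 alone 7.5-fold. The T2 call held when any 1 library was left out, and the T3 call was lost without T0 replicate 1 or 2 or either T3 library (adjusted p from 0.0992 to 0.327). Its exons overlap the opposite-strand gene Gm17141.

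Cacna2d3, which promotes synapse formation, had 2, 1 and 1 counts at T0, 6, 7 and 10 at T1, 1, 9, 3 and 18 at T2, then 39 and 67 at T3. The T3 libraries stood above all others. At T3 it was at least 24.3-fold higher than at T0 (edgeR adjusted p = 0.0184), a call lost without T0 replicate 1 or 2 or either T3 library. From T3 replicate 1 alone the bound was 15.2-fold and from replicate 4 alone 33.5-fold. Against T2 the fold of 8.31 was not called (log2 fold change 3.06, SE 0.60, edgeR adjusted p = 0.0538), while it was with no filter, by DESeq2, in 1 fit of all libraries and without T3 replicate 1 (log2 fold change 3.52, SE 0.60, edgeR adjusted p = 0.01). Without T3 replicate 4 the fold was 5.16 (log2 fold change 2.37, SE 0.68, edgeR adjusted p = 0.176). Cacna2d4, the retinal subunit, stayed between 0.0747 and 1.11 CPM, with at most 16 counts, and was called in no comparison.

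**Figure D5:**
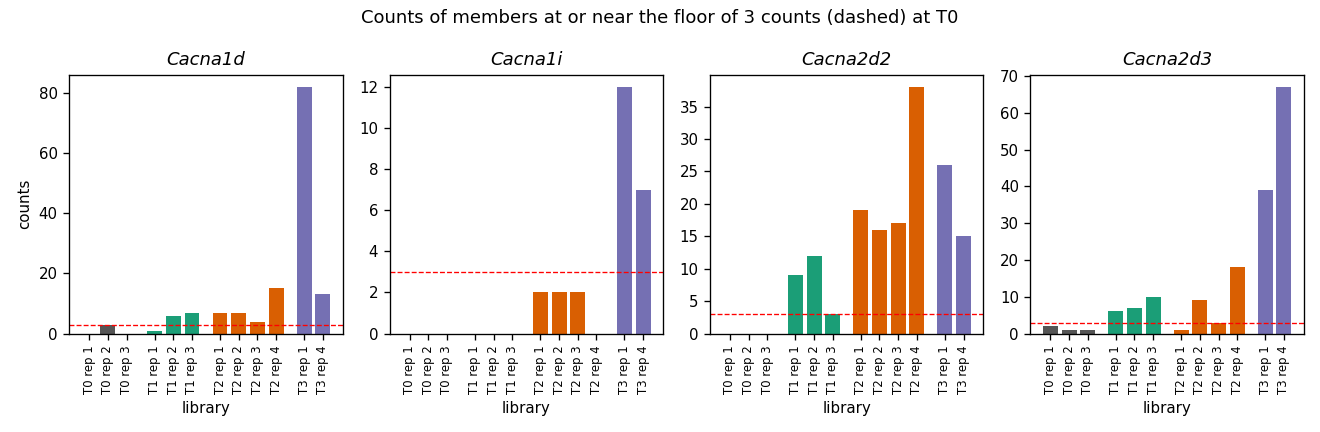
Counts (y axis) per library (x axis) of the 4 members that had at most 3 counts in each T0 library and more than 10 later; the dashed line marks 3 counts. Cacna2d2 rises by T2, while Cacna1d, Cacna1i and Cacna2d3 have their highest counts at T3, where Cacna1d reached 82 in replicate 1 and 13 in replicate 4.

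The calcium beta subunits were present at every time point. Cacnb3, the beta subunit of N-type channels, measured 111, 122 and 93.8 CPM at T0, 109.9, 114 and 105 at T1, 114, 117, 124 and 103 at T2, then 107 and 114 at T3. All libraries lay between 93.8 and 124 CPM, and the fitted log2 fold change stayed between 0.00 and 0.09 against T0 (edgeR adjusted p from 0.594 to 0.996). Its standard errors were 0.13, 0.12 and 0.17 at T1, T2 and T3. Cacnb1 measured 30.8, 26.6 and 10.2 CPM at T0, 48.4, 43.4 and 40.2 at T1, 41.2, 46.2, 52 and 37.8 at T2, then 43 and 25.7 at T3. Its T1 and T2 libraries were above T0, where replicate 3 was lowest. It rose 1.99-fold at T2 (log2 fold change 0.99, SE 0.33, edgeR adjusted p = 0.0402), or 1.56-fold without T0 replicate 3, and the call was lost without T0 replicate 2 or any 1 of the T2 libraries (adjusted p from 0.0533 to 0.0966). An exon of Cacnb1 overlaps the opposite-strand gene Gm11629.

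Cacnb4, a beta subunit of mature neurons whose loss causes ataxia and seizures, measured 15.5, 13.2 and 5.22 CPM at T0, 16.2, 22 and 15.7 at T1, 28.8, 27.7, 26.4 and 21.6 at T2, then 33.7 and 21.7 at T3. The T1 libraries were only just above T0, and the T2 libraries were all above it. It rose 2.34-fold at T2 (log2 fold change 1.23, SE 0.33, edgeR adjusted p = 0.0168), or 1.84-fold without T0 replicate 3, and the call held when any 1 library was left out. Cacnb2, the heart beta subunit, lay between 4.56 and 7.32 CPM in all libraries but T3 replicate 4, at 11.2, and was called in no comparison. Both genes share exons with opposite-strand genes (A430018G15Rik for Cacnb4, Gm10849 and Gm13269 for Cacnb2).

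The steps between later time points gave few calls. From T1 to T2, 1 of 19 members rose (Scn3b) and 0 fell by edgeR, against 0.573% higher and 0.0565% lower of 12382 genes, and 10 members had an unadjusted p under 0.05 (11.7% of all genes). The labels name no pairs. Same-numbered T1 and T2 libraries were taken as pairs because they deviated together in these same counts, and T2 replicate 4 has no T1 partner. With the replicate number as a block 4 members rose (1.51% of all genes) and 0 fell (0.476%): Scn1a (log2 fold change 1.10, SE 0.19, edgeR adjusted p = 0.0417), Scn3a (log2 fold change 1.66, SE 0.18, edgeR adjusted p = 0.0133), Scn8a (log2 fold change 0.93, SE 0.07, edgeR adjusted p = 0.00558) and Scn3b (log2 fold change 0.66, SE 0.11, edgeR adjusted p = 0.0392). Without the block Scn3a and Scn8a had folds of 2.66 and 1.77 and the T2 libraries lay above all T1 libraries, but neither passed (edgeR adjusted p = 0.0838 and 0.085). Scn1a did not pass either (edgeR adjusted p = 0.276). DESeq2, without the block, called 4 higher and 0 lower. From T2 to T3, 0 of 21 members rose and 0 fell by edgeR, against 0.5% and 0.691% of 12599 genes, with 5 members at an unadjusted p under 0.05 (17% of all genes). DESeq2 called 2 higher and 1 lower. Of the 21, 3 lay above without overlap (Scn3b, Cacna1d and Cacna2d3) and 1 below (Cacna2d1), against 13.6% and 12.1% of all genes. Without T3 replicate 1, 4 members were higher, Cacna2d3 and Cacnb2 among them, and 2 lower (Cacna1g and Cacnb1), against 6.46% and 4% of all genes, and without T3 replicate 4 only Cacna1d was called higher and 0 members lower (0.762% and 0.396% of all genes).

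Genes that work with these channels were followed from a list of 44, fixed with earlier results of these data known. Nalcn, the sodium leak channel, had 2 counts in 1 library and 0 in the others. At T1 6 of the 26 tested rose and 5 fell, at T2 12 of 30 rose and 6 fell, and at T3 6 of 31 rose and 1 fell, beside the shares of all genes of 15.1% and 16.8% at T1, 21.4% and 21.8% at T2, and 3.31% and 1.41% at T3. The 8 with the largest absolute log2 fold change at T2 among those called were Nfasc, Rims1, Cabp1, Fgf12, Cacng5, Cntn1, Cacng8 and Unc79. Nfasc, the adhesion protein that gathers sodium channels at the initial segment and at nodes, measured 0.525, 0.349 and 0.141 CPM at T0, 1.12, 1.79 and 2.13 at T1, 12.3, 11.2, 8.74 and 11.4 at T2, then 142 and 111 at T3, with no overlap between any of the groups. It rose 32-fold at T2 (log2 fold change 5.00, SE 0.36, edgeR adjusted p = 6.96e-05) and again 11.5-fold from T2 to T3 (log2 fold change 3.52, SE 0.15, edgeR adjusted p = 6.21e-05).

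Fgf12, an intracellular FGF that binds the tail of sodium alpha subunits, rose 12.5-fold at T2 from 3 to 5 counts per T0 library (log2 fold change 3.64, SE 0.32, edgeR adjusted p = 0.000122). Ank3, the ankyrin that holds sodium channels at the initial segment, measured 18.4, 21.7 and 26.4 CPM at T0, 24.4, 29 and 19.4 at T1, 42.2, 56.8, 42.2 and 35.6 at T2, then 67 and 70.4 at T3 and rose 2.02-fold at T2 (log2 fold change 1.01, SE 0.19, edgeR adjusted p = 0.00401). Its T2 and T3 libraries lay above all T0 and T1 libraries. Of the 9 listed cofactors of sodium channels and initial segment genes tested at T2, 5 rose and 1 fell, against 21.4% and 21.8% of all genes. Cntn1, an adhesion protein that binds sodium channel beta subunits, rose 6.64-fold at T2 (log2 fold change 2.73, SE 0.36, edgeR adjusted p = 0.000646). Of the active-zone and calcium-sensing partners of calcium channels, Rims1 was at least 6.85-fold higher at T2 (edgeR adjusted p = 0.000891) and Cabp1 at least 8.29-fold (edgeR adjusted p = 0.000256), both with at most 2 counts in each T0 library.

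The gamma family, which is best known for proteins that escort AMPA receptors, moved in both directions. Cacng4 measured 52.1, 53.5 and 62.1 CPM at T0, 78.4, 77 and 93.5 at T1, 86.1, 100.1, 88.7 and 89.8 at T2, then 115 and 65 at T3 and rose 1.65-fold at T2 (log2 fold change 0.72, SE 0.11, edgeR adjusted p = 0.00131), and Cacng5 rose 6.94-fold (log2 fold change 2.79, SE 0.52, edgeR adjusted p = 0.00355). Cacng8 fell 2.25-fold (log2 fold change -1.17, SE 0.29, edgeR adjusted p = 0.0127). Unc79, a subunit of the leak channel complex, rose 2.05-fold (log2 fold change 1.03, SE 0.22, edgeR adjusted p = 0.00653) while the pore gene Nalcn had at most 2 counts.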

How the data were processed

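RNA from 12 ANS cell libraries was sequenced by the authors (TruSeq v2, HiScanSQ). Per the submitters' processing notes, TopHat2 2.0.6, Bowtie 0.12.7.0, HTSeq 0.6.0 and build mm9 were used. The deposited counts are raw reads per gene, and the deposited FPKM values are the authors' own, per kilobase and library size; the FPKM tool and the strand setting are not given in the sources used here. Rows that name no gene were left out of library sizes (reads on no feature were 13.3% to 24.1%).

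Each comparison was fitted on its own groups with edgeR 4.0.16 in R 4.3.3 (filterByExpr, TMM, quasi-likelihood test, Benjamini-Hochberg adjustment over all genes tested, threshold 0.05). The self-test on simulated counts was run after the fits. FPKM served only for levels between genes. Alternatives were DESeq2 1.42.0, another scaling, no filter, one fit, a replicate block and leaving out each library. Same-numbered T1 and T2 libraries deviated together (correlations of 0.199, 0.341 and 0.165), so those numbers were taken as pairs. All members entered the counts, and 2 are not reported here by name or value; partner genes were named if listed by a fixed rule (the 8 largest changes at T2 among those called, plus Scn2a1, Rest, Ank3, Cacng4 and Nalcn). Members and lists were chosen with earlier results of these data known. Coordinates are mm9, and motif matches were read from the genome of that build with its GENCODE annotation. Floors cover counting error only.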

Additional observations from a re-analysis of the deposited data

Results flagged for a closer look

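Cacna1i at T2 replicate 4 stood at 0 CPM, while the other T2 libraries stood at 0.182, 0.185 and 0.191 CPM. The gap to the nearest library was 0.952 of the range of the group, above Dixon's 95% critical value for 4 samples. The values are 2 counts in each of the other 3 libraries and 0 in this one, and chance flags about 1 in 20 groups, with 23 members looked at.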

How the results depend on the processing

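The number of members called depended on the setting. At T1 against T0, 4 were higher, and DESeq2 gave 8, a single fit over all groups 8, and libraries numbered 1 and 2 alone 10; leaving out 1 library gave 4 to 8 (8 without T0 replicate 3). The 1 lower call became 3 with libraries 1 and 2 alone and 0 to 2 without 1 library. At T2 against T0, 10 were higher, 6 with the replicate block (12.9% of all genes), and 6 to 11 without 1 library (6 without T2 replicate 2). At T3 against T0, 3 were higher, 8 with no filter beyond 1 count, 9 by DESeq2, 11 in the single fit and 0 to 8 without 1 library (8 without T0 replicate 3, 0 without any other). From T1 to T2, 1 was higher, 3 with no filter, 4 by DESeq2, 0 in the single fit, 4 with the replicate block, 2 with libraries 1 and 2 alone and 0 to 1 without 1 library. From T2 to T3, 0 were higher by edgeR (5 members at an unadjusted p under 0.05), 2 with no filter, 2 by DESeq2, 1 in the single fit and 0 to 4 without 1 library, and 0 were lower, 1 with no filter, 1 by DESeq2 and 0 to 2 without 1 library. Cacna1g reversed from T2 to T3 without T3 replicate 1 (log2 fold change -0.94, edgeR adjusted p = 0.024, against 0.67 without T3 replicate 4). Silent members numbered 8, and 9 with at most 10 counts or with a mean under 0.1 FPKM. The cause of these shifts was not tested.

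Outside T1 and T2 the numbers were not taken as pairs, since not every correlation was over 0.1 or fewer than 3 pairs exist. Their deviations correlated between -0.0179 and 0.121 for T1 and T0, -0.151 and 0.0158 for T2 and T0, and -0.0147 and 0.258 for T3 and T2. With the replicate block 5 members were higher at T1 and 0 from T2 to T3. No paired analysis was possible for T3 against T0 because the groups share only replicate number 1, whose libraries correlated at 0.403. With 2 libraries at T3, and 1 left when the other is left out, the lone library is assumed to vary like the rest.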
